A study of Mus musculus with 10 samples.

Results

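The genes described here are the variable (V), diversity (D) and joining (J) segments of the mouse immunoglobulin heavy chain locus, measured as RNA in sorted leukemia-initiating cells. They were chosen by symbol, as every gene of the GENCODE M21 annotation named Ighv, or Ighd or Ighj followed by a digit. The rule gave 209 of the 55494 genes with a listed transcript, namely 185 V, 20 D and 4 J segments, all on chromosome 12 of GRCm38 (mm10). Of the V segments, 113 are annotated as functional and 70 as pseudogenes, and 2 are copies on the opposite strand that held 0 reads in all 10 libraries.

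Leukemia-initiating cells (LICs) were sorted by flow cytometry from the spleens of 13-day-old Eμ-Ret pups, which carry the RFP/RET transgene in both groups and develop leukemia of B cell precursors. Eμ is the enhancer of the heavy chain locus itself, active in B lineage cells, and no library without the transgene was analysed here. Pups had received 20 µg of Poly(A:U), an artificial RNA of paired strands that Toll-like receptor 3 binds (5 libraries), or 50 µl of PBS (5 libraries). Cells were collected 7 days later to ask how Poly(A:U) affects LICs. The sample titles name pups and a replicate number, and do not say whether a library came from a single pup or a pool. The spread between RNA-seq libraries is therefore not known to be that between single pups. The sources used here do not give the sort gate or the mouse strain, and V segments of a strain other than that of the reference genome would be read against sequences that are not their own.

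A heavy chain gene is assembled in the B cell precursor when the RAG recombinase joins a D segment to a J segment and then a V segment to the DJ unit. Because each cell keeps few such joins, a population grown from 1 rearranged cell usually carries 1 dominant V segment, while a population of many origins carries many. Segments can also be transcribed from their own promoters before they recombine, and the distal V segments, mainly of the large Ighv1 (J558) family, need folding of the locus, with Pax5, Yy1 and Ikzf1 taking part, to reach the DJ unit. In RNA counted per segment, rearranged and unrearranged transcripts cannot be told apart, nor can a V segment be linked to its J segment.

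V exons of the leading segments are close relatives, and the following stretches show how close. Each is the last 120 bases up to tgtgcaaga, bases found at or close to the end of 82 of the 183 V exons of the minus strand, whose first codon encodes the conserved cysteine before the third hypervariable loop. They were taken from the GENCODE M21 transcripts and are written 5′ to 3′ on the minus strand of GRCm38, with capitals at the bases that differ from Ighv1-85. The positions are chr12:116000028-116000147 for Ighv1-85, chr12:115980702-115980821 for Ighv1-84, chr12:115593110-115593229 for Ighv1-66, chr12:115507545-115507664 for Ighv1-64, chr12:115158403-115158522 for Ighv1-53 and chr12:113578506-113578625 for Ighv5-2.
Ighv1-85: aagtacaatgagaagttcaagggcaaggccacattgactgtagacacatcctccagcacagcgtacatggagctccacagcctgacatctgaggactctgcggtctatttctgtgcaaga
Ighv1-84: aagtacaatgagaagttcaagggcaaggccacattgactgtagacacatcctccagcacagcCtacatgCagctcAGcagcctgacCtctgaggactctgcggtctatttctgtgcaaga
Ighv1-66: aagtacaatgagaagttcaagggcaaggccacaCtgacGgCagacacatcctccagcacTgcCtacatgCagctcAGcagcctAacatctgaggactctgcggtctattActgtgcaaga
Ighv1-64: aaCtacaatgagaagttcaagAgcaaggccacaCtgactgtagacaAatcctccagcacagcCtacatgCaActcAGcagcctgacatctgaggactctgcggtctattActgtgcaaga
Ighv1-53: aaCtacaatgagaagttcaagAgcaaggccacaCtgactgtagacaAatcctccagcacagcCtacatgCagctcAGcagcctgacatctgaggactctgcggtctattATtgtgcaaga
Ighv5-2: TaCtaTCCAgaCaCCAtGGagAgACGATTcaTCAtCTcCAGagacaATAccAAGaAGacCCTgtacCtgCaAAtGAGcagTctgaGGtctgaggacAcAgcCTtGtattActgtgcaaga
Over this stretch Ighv1-84 differs from Ighv1-85 at 5 bases, and Ighv1-66, Ighv1-64 and Ighv1-53 at 10 each. Ighv5-2, of another family, differs at 54 of the 120 bases.

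Over the whole V exon the segment nearest to Ighv1-85 was Ighv1-84, with 93.4% of bases the same, and the nearest to Ighv1-66 was also Ighv1-84, with 95.4%. Of the 31-base words in the exon of Ighv1-85, 24.4% occurred in no other V exon, against 58.2% for Ighv1-66 and 88.1% for Ighv5-2. The authors' estimation divides reads that fit several segments among them, so the level of a single segment is less certain than that of its family. The extreme among the 10 leading segments was Ighv1-72, whose V exon matched Ighv1-62-3 at 99.0% of bases and had 0 words of its own. The last 300 bases of this pair, at chr12:115757984-115758283 and chr12:115460999-115461298, are shown with capitals at the 3 bases that differ.
Ighv1-72: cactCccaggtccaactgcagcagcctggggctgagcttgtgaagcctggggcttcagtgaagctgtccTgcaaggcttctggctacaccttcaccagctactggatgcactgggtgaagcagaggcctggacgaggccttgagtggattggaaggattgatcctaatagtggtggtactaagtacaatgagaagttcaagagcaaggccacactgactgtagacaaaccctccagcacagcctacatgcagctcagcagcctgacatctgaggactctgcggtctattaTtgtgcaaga
Ighv1-62-3: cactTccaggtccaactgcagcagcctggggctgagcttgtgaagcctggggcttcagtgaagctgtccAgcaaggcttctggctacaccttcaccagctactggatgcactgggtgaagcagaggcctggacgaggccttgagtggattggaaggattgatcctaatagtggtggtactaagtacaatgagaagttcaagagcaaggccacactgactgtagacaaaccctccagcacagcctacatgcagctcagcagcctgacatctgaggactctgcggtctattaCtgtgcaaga

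All 10 libraries held the RNA of B cell precursors, with Cd79a, the signalling chain of the B cell receptor, at 2479 to 3705 CPM (reads scaled to the size of the library) in Poly(A:U) and 2631 to 3738 CPM in PBS. The 13 precursor markers summed to 10730 to 13686 CPM in Poly(A:U) and 9519 to 14752 CPM in PBS, the lowest being PBS 4. Markers of other cells differed between libraries. The 8 neutrophil markers summed to 29.7 to 270 CPM in Poly(A:U) and to 727 to 1105 CPM in PBS 1 to PBS 3, which share a start of the library name that no Poly(A:U) library has, while PBS 4 and PBS 5 had 54.6 and 51.2 CPM. The 10 T cell markers summed to 18.8 to 40.7 CPM in Poly(A:U) and to 20.3 to 24.5 CPM in PBS, except for 326 CPM in PBS 4. The 8 macrophage markers summed to 37.0 to 57.8 CPM in Poly(A:U) and 36.4 to 177 CPM in PBS. In PBS 1 to PBS 3 most of the sum was Lyz2, at 106, 143 and 117 CPM. C1qa was at 2.19, 0.738 and 1.84 CPM there, and Mpeg1 at 16.5, 13.6 and 11.7 CPM. PBS 4, with the highest sum, had Lyz2 at 49.4, C1qa at 33.7 and Mpeg1 at 21.5 CPM. The 8 erythroid markers summed to 1297 to 12842 CPM in Poly(A:U) and to only 138 to 438 CPM in PBS 1 to PBS 3. PBS 4 and PBS 5 had 2554 and 11918 CPM of them. Plasma cells, which hold much immunoglobulin RNA, were represented by 8 markers with sums of 1028 to 1242 CPM in Poly(A:U) and 1060 to 1218 CPM in PBS. Most of these sums came from Mzb1, at 587 to 856 CPM in Poly(A:U) and 681 to 879 CPM in PBS, and from Irf4. Xbp1 was at 76.5 to 98.7 CPM in Poly(A:U) and 55.7 to 98.2 CPM in PBS. Prdm1, Sdc1 and Derl3 reached at most 7.48 CPM, and Tnfrsf17 did not exceed 0.244 CPM in any library. Jchain, another plasma cell gene, was at 3.64 to 18.2 CPM in Poly(A:U) and 2.36 to 62.9 CPM in PBS, the highest being PBS 1. The 10 mature B cell markers summed to 841 to 942 CPM in Poly(A:U) and 724 to 1024 CPM in PBS. The part of these other cells in the V values below was not tested.

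V segments were transcribed in every library, at 752 to 1021 CPM in sum. Estimated V reads numbered 18071, 18246, 18677, 17735 and 20718 in Poly(A:U) 1 to 5, and 20256, 17294, 18786, 14770 and 21658 in PBS 1 to 5, which is 0.0726% to 0.102% of all reads. Scaled for depth these were 1012, 844, 870, 972 and 905 CPM in Poly(A:U), against 988, 982, 1014, 752 and 1021 CPM in PBS. The ranges overlapped widely, PBS 4 being the lowest of all 10. The means were 921 ± 70.2 CPM in Poly(A:U) and 951 ± 113 CPM in PBS (SD, n = 5 each), a log2 difference of -0.04 (two-sided exact permutation test, p = 0.683, adjusted p = 0.796 over the 7 measures of segment usage). Leaving out single libraries gave -0.12 without PBS 4 to -0.011 without Poly(A:U) 2. This test cannot give a p below 0.00794 with 5 libraries against 5. In bulk RNA, fewer cells with V transcripts and less V RNA per cell cannot be told apart.

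Per unit of length, V RNA was of the order of the RNA of the constant region gene Ighm. How much of the V RNA was spliced to Ighm cannot be told from counts per segment. TPM summed over V segments came to 4032 to 6415 across the 10 libraries, and Ighm, the first constant region gene used, to 2055 to 3652 TPM. The ratio of the V sum to Ighm was 1.95 ± 0.38 in Poly(A:U) and 1.82 ± 0.21 in PBS (SD, n = 5 each), with the highest value, 2.53, in Poly(A:U) 5. TPM divides by an effective length, whose median for V segments was 202.4 bases where the median transcript is 351 bases, so the ratio depends on that correction.

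Usage of V segments was broad and at the same time led by the same pair of segments in all 10 libraries. Between 131 and 142 V segments had reads in a library, and 104 to 116 had at least 10. Over the series 123 had reads in every library and 34 had none in any. Of functional segments 109 had reads somewhere, and of pseudogenes 42 did. Pseudogenes held 4.33% ± 0.34 of V reads in Poly(A:U) and 4.42% ± 0.24 in PBS (SD, n = 5 each), the highest of them being Ighv1-73 at a mean of 1.00% over the 10 libraries.

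Ighv1-85, which lies near the distal end of the locus, ranked first in all 10 libraries. It held 23.8%, 26.7%, 25.8%, 25.8% and 21.2% of V reads in Poly(A:U) 1 to 5, against 22.4%, 25.0%, 26.6%, 23.8% and 21.03% in PBS 1 to 5. Each group has a library near 21% and one near 26.6%, so the groups cover the same range. The means were 24.6% ± 2.21 in Poly(A:U) and 23.8% ± 2.16 in PBS (SD, n = 5 each), and the difference of 0.874 percentage points did not pass (two-sided exact permutation test, p = 0.524, adjusted p = 0.733). Leaving out PBS 5 gave 0.188 percentage points, and leaving out Poly(A:U) 5 gave 1.74. The Wilson 95% interval of a single library, 20.6% to 21.7% in Poly(A:U) 5 for example, is narrower than the spread between libraries. Such intervals cover counting error only, because estimated reads are not independent molecules.

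Ighv1-66 ranked second in all 10 libraries, with 16.3%, 16.9%, 16.6%, 16.2% and 17.3% in Poly(A:U) and 15.5%, 16.1%, 17.6%, 16.4% and 14.6% in PBS. Its mean shares were 16.7% ± 0.46 in Poly(A:U) and 16.05% ± 1.11 in PBS (SD, n = 5 each). The pair together held 38.5% to 43.5% of V reads in Poly(A:U) and 35.6% to 44.2% in PBS. On the deposited TPM scale their mean shares over all libraries were 25.7% and 13.98%, against 24.2% and 16.4% of reads.

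**Figure D1:**
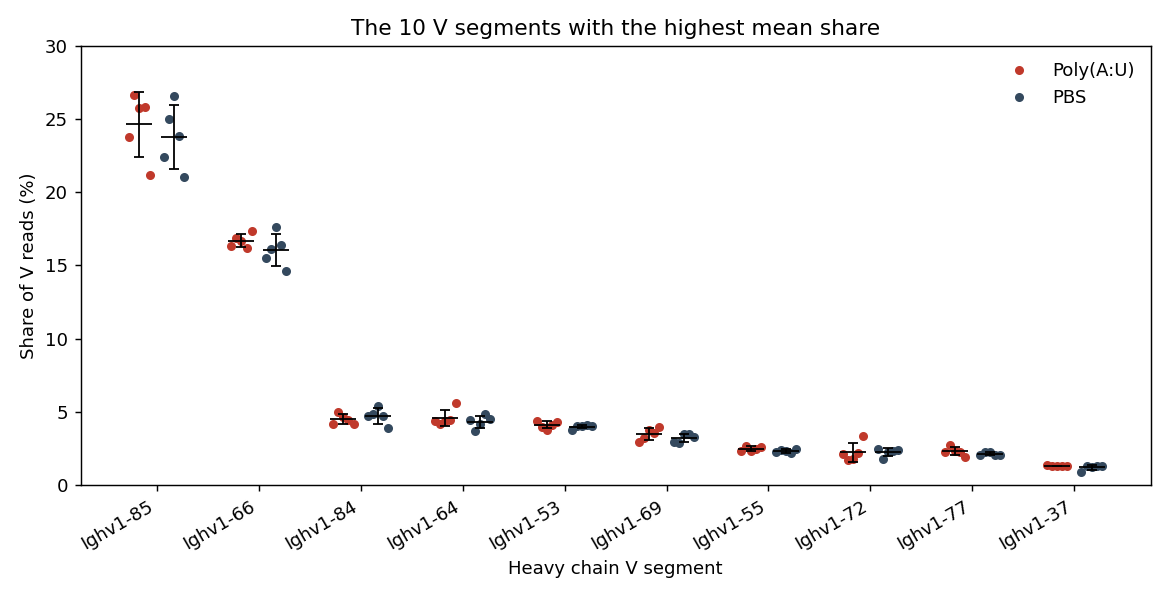
Share of V reads (y axis, %) of the 10 V segments with the highest mean share (x axis), with 1 point per library, Poly(A:U) left of PBS, and bars for the mean ± SD of 5 libraries. Ighv1-85 and Ighv1-66 stand above 14% in every library and the other 8 stay below 6%.

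The next segments were each far below the leading pair. Ighv1-84 averaged 4.47% ± 0.34 in Poly(A:U) and 4.70% ± 0.53 in PBS, with its highest share, 5.36%, in PBS 3. Ighv1-64 averaged 4.57% ± 0.57 in Poly(A:U) and 4.30% ± 0.42 in PBS, with its highest share, 5.57%, in Poly(A:U) 5. These were the other segments to reach 5% in any library, which 4 segments did in all. Ighv1-53 had the smallest ratio of highest to lowest share among the 10 leading segments, 1.16 over the 10 libraries, at 3.78% to 4.38% in Poly(A:U) and 3.78% to 4.08% in PBS. Ighv1-69, Ighv1-55, Ighv1-72, Ighv1-77 and Ighv1-37 followed with mean shares over the 10 libraries of 3.34%, 2.39%, 2.23%, 2.20% and 1.24%. All 10 leading segments belong to the Ighv1 family.

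A few lower segments stood out in single libraries. Ighv5-2, one of the V segments nearest to the D segments, held 1.17%, 1.05%, 1.13%, 1.05% and 2.50% of V reads in Poly(A:U) 1 to 5, against 1.145%, 1.24%, 0.884%, 1.13% and 1.06% in PBS 1 to 5. Poly(A:U) 5 was thus alone above 1.3%, with a Wilson 95% interval of 2.30% to 2.72% from 518 reads. In the same library Ighv1-72 held 3.33%, against 1.72% to 2.14% in the other 4 Poly(A:U) libraries and 1.77% to 2.43% in PBS. The V exon of Ighv1-72 has 0 words of its own, so its share as a single segment is uncertain. Ighv6-3 was low throughout, at 0.112% to 0.292% in Poly(A:U) and 0.0873% to 0.273% in PBS.

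Dominance was summarised by the effective number of V segments, the inverse of the summed squared shares, which is 1 when a single segment holds all reads. It was 10.7, 9.09, 9.56, 9.66 and 11.4 in Poly(A:U), against 11.8, 10.2, 8.90, 10.6 and 13.1 in PBS. No library came near 1, and the lowest and the highest value were both in PBS. The means were 10.1 ± 0.94 in Poly(A:U) and 10.9 ± 1.60 in PBS (SD, n = 5 each), a difference of -0.815 (two-sided exact permutation test, p = 0.357, adjusted p = 0.625). Leaving out PBS 5 brought it to -0.264 and leaving out PBS 3 to -1.32. Without PBS 1 to PBS 3 the difference in effective number was -1.75, that in the share of Ighv1-85 2.22 percentage points and that in V reads 0.068 on the log2 scale. With 5 libraries against 2 the two-sided exact permutation test cannot give a p below 0.0952, so these values stand without a test. When Ighv1-85 and Ighv1-66 were set aside, the remaining reads had an effective number of 31.9 ± 2.20 in Poly(A:U) and 34.3 ± 3.66 in PBS.

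Cumulative usage shows the same shape in every library. In Poly(A:U) 4 or 5 segments held 50% of V reads and 46 to 53 held 90%, while in PBS 4 to 6 held 50% and 45 to 57 held 90%. The 10 leading segments of a library held 63.9% to 68.1% in Poly(A:U) and 59.9% to 69.4% in PBS. Segments with at least 1% of V reads numbered 12 to 16 in Poly(A:U) and 14 to 19 in PBS. In all, 22 segments reached 1% in some library, 9 did so in all 10, and 163 stayed under it in every library.

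**Figure D2:**
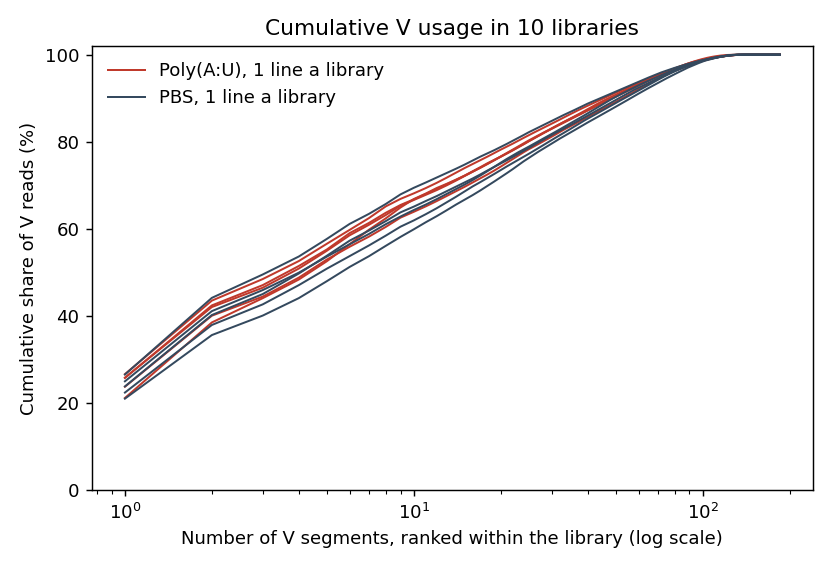
Cumulative share of V reads (y axis, %) against the number of V segments ranked by share within each library (x axis, log scale), with 1 line per library, Poly(A:U) in red and PBS in dark blue. The lines start between 21.03% and 26.7% and run close together, and at 10 segments PBS 3 is the highest at 69.4% and PBS 5 the lowest at 59.9%.

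Whole profiles of V usage were compared between libraries by a distance. The share of V reads that would have to move between segments to turn one library into another was 3.76% to 10.97% within Poly(A:U), 4.89% to 12.2% between the groups and 6.82% to 12.3% within PBS. The means were 7.28% within Poly(A:U), 8.07% between groups and 8.54% within PBS, so libraries of different groups were on average no farther apart than PBS libraries were from each other. The excess of the distance between groups over that within them was 0.00159 as a fraction of V reads (one-sided exact permutation test, p = 0.278, adjusted p = 0.625). Across segments, the correlation of shares between 2 libraries ran from r = 0.985 to r = 0.9995, a description over segments that share a library and its depth, in which the leading pair weighs most. Poly(A:U) 5 and PBS 5 were farthest from the rest, at mean distances of 10.1% and 9.77%. The nearest library to Poly(A:U) 1 was PBS 4, and to PBS 3 it was Poly(A:U) 2.

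Along the locus, reads came mostly from the distal end. The 185 V segments were put in order from the D segments outward and split into 5 stretches of 37. The most distal stretch, from Ighv1-61 to Ighv1-86, held 66.5% ± 1.58 of V reads in Poly(A:U) and 64.1% ± 3.59 in PBS (SD, n = 5 each). The next, from Ighv1-30 to Ighv1-60, held 13.6% ± 0.14 in Poly(A:U) and 13.4% ± 0.52 in PBS. The middle stretch and the one on its D side held 5.31% ± 0.10 and 5.02% ± 0.41 in Poly(A:U), against 5.25% ± 0.50 and 5.84% ± 1.08 in PBS. The stretch nearest the D segments, from Ighv5-1 to Ighv4-1, held 7.97% to 11.1% in Poly(A:U) and 8.42% to 13.8% in PBS. Its highest values, 13.4% and 13.8%, were in PBS 1 and PBS 5.

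**Figure D3:**
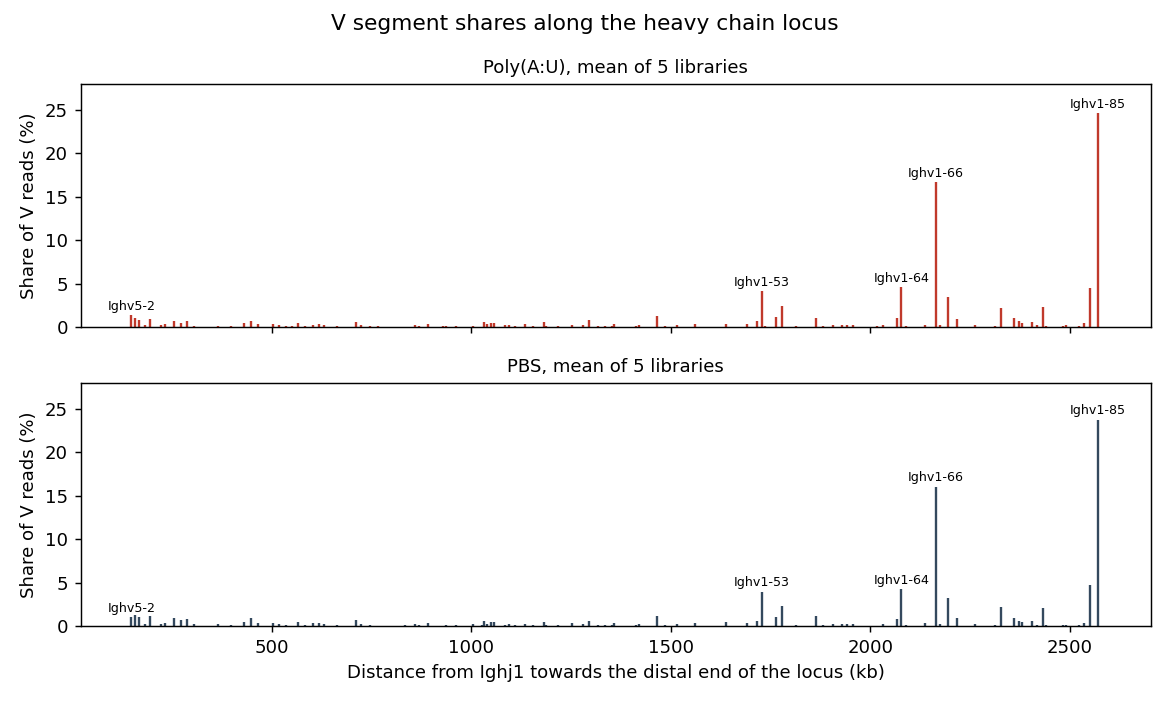
Mean share of V reads (y axis, %) of each V segment against its distance from Ighj1 in kb (x axis, D-proximal on the left), Poly(A:U) above and PBS below, 5 libraries each. In both panels the tall lines are Ighv1-85 and Ighv1-66 towards the distal end, and the proximal segments form a row of short lines.

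Families followed the same division. Ighv1, the largest family with 93 genes, held 79.1%, 83.2%, 81.3%, 80.8% and 80.6% of V reads in Poly(A:U) 1 to 5, against 75.1%, 77.8%, 82.2%, 80.1% and 74.9% in PBS 1 to 5. All Poly(A:U) libraries lay between 79.1% and 83.2%, whereas PBS 1, PBS 2 and PBS 5 lay below that span and PBS 3 and PBS 4 within it. The means were 81.0% ± 1.47 in Poly(A:U) and 78.0% ± 3.18 in PBS (SD, n = 5 each), and the difference of 2.97 percentage points did not pass (two-sided exact permutation test, p = 0.119, adjusted p = 0.5). Without PBS 1 to PBS 3 the difference was 3.48 percentage points, with 2 PBS libraries left and no test that could pass.

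The Ighv2 (Q52) and Ighv5 families, which lie nearest to the D segments and are joined often in fetal and neonatal precursors, had a lower mean share in Poly(A:U), a difference that did not pass either. Together they held 10.02%, 7.28%, 8.13%, 8.39% and 9.23% in Poly(A:U), against 12.1%, 10.2%, 7.48%, 9.19% and 12.5% in PBS. PBS 1, PBS 2 and PBS 5 lay above every Poly(A:U) library, and PBS 3 and PBS 4 lay among them. The means were 8.61% ± 1.05 in Poly(A:U) and 10.3% ± 2.09 in PBS (SD, n = 5 each), a difference of -1.68 percentage points (two-sided exact permutation test, p = 0.143, adjusted p = 0.5). It was -2.25 percentage points without PBS 1 to PBS 3, and ran from -2.39 to -1.13 percentage points when single libraries were left out, without PBS 3 and without PBS 5. Of the other families Ighv8 held the most, 4.05% ± 0.14 in Poly(A:U) and 4.37% ± 0.67 in PBS. Ighv14 held 1.12% ± 0.09 in Poly(A:U) and 1.35% ± 0.30 in PBS, and Ighv3 held 1.07% ± 0.15 in Poly(A:U) and 1.39% ± 0.37 in PBS.

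**Figure D4:**
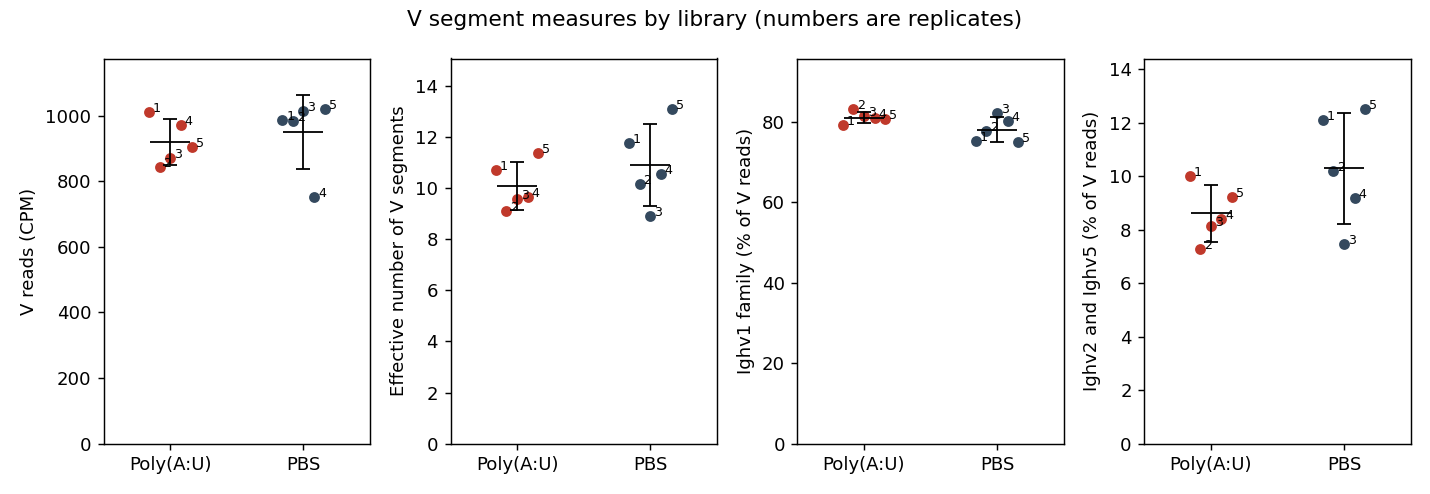
V reads in CPM, effective number of V segments, and shares of the Ighv1 family and of the Ighv2 and Ighv5 families (y axes, % of V reads for the shares), with 1 numbered point per library and bars for the mean ± SD of 5 libraries, Poly(A:U) left of PBS. The groups overlap in all 4 panels, PBS 4 is the lowest in V reads at 752 CPM, and PBS 5 has the highest effective number at 13.1.

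Gene by gene, no V segment passed the test between Poly(A:U) and PBS. A filter on low counts left 112 members, all V segments, among 13729 genes tested together. It can pass a segment through the group where it is higher, so the counts over these 112 describe them and nothing more. The edgeR quasi-likelihood test with Benjamini-Hochberg adjustment called 0 of the 112 and 0 of all genes (0%), the smallest adjusted p of a member being 0.677. DESeq2's Wald test called 0 members and 13 genes in all, and edgeR called 0 members and 18 genes without PBS 5. At an unadjusted p below 0.05 there were 6 members (5.36%), against 7.3% of all genes, and all 6 were lower in Poly(A:U), where 3.19% of all genes were. The count moved with single libraries, as did that of all genes. Without PBS 4 it was 16 members (13.9%), all lower, against 14.2% of all genes, and without Poly(A:U) 3 it was 0, against 4.5% of all genes. It was 2 without Poly(A:U) 5 (1.74%, against 10.5% of all genes), and 1 without PBS 1 (4.1% of all genes), PBS 5 (11.2%) or Poly(A:U) 2 (5.52%), the last being higher in Poly(A:U). The groups of libraries did not overlap for 0 of the 112 members, against 0.816% of all genes.

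Log2 fold changes were negative for 71 of the 112 tested members (63.4%), against 50.6% of all genes, and their median was -0.12, against -0.0024 over all genes. Of 58 tested Ighv1 segments 31 were positive and 27 negative, with a median of 0.01. Of 16 tested Ighv2 and Ighv5 segments 15 were negative, with a median of -0.32, and of the 38 segments of other families 29 were negative, with a median of -0.27. These segments were measured in the same libraries and are not separate replicates of the comparison.

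The 2 leading segments had log2 fold changes near 0 with all libraries. Ighv1-85 had 241, 225, 224, 251 and 192 CPM in Poly(A:U) 1 to 5, against 221, 246, 269, 179 and 215 CPM in PBS 1 to 5, a log2 fold change of 0.00 ± 0.11 (SE). Ighv1-66 averaged 153 ± 9.47 CPM in Poly(A:U) and 152 ± 19.9 CPM in PBS (SD, n = 5 each), with a log2 fold change of 0.01 ± 0.10 (SE). Both values lay so close to 0 that their sign turned with RLE size factors. Without PBS 1 to PBS 3 they were 0.21 for Ighv1-85 and 0.18 for Ighv1-66, neither of them called by edgeR. Ighv1-84 had a log2 fold change of -0.12 ± 0.11 and Ighv5-2 of 0.29 ± 0.24, with 12.7 ± 5.66 CPM in Poly(A:U) and 10.4 ± 1.58 CPM in PBS.

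The smallest unadjusted p belonged to segments of low level. Ighv3-2, annotated as a pseudogene, had 3.18, 1.43, 2.00, 2.46 and 2.14 CPM in Poly(A:U) and 5.51, 3.91, 2.45, 2.68 and 4.00 CPM in PBS, a log2 fold change of -0.73 ± 0.28 (SE). The PBS 3 and PBS 4 values fell inside the Poly(A:U) range. Ighv5-12 averaged 4.64 ± 1.14 CPM in Poly(A:U) and 6.68 ± 1.43 CPM in PBS, a log2 fold change of -0.53 ± 0.21. Ighv9-1 averaged 0.779 ± 0.29 CPM in Poly(A:U) and 1.47 ± 0.66 CPM in PBS, a log2 fold change of -0.95 ± 0.38. On the positive side Ighv15-2 averaged 2.98 ± 0.74 CPM in Poly(A:U) and 2.22 ± 0.31 CPM in PBS, a log2 fold change of 0.42 ± 0.24. Ighv1-78 and Ighv1-83 had log2 fold changes of 0.44 ± 0.31 and 0.26 ± 0.19. The adjusted p of these 6 segments ran from 0.677 to 0.726 in edgeR's quasi-likelihood test with Benjamini-Hochberg adjustment.

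**Figure D5:**
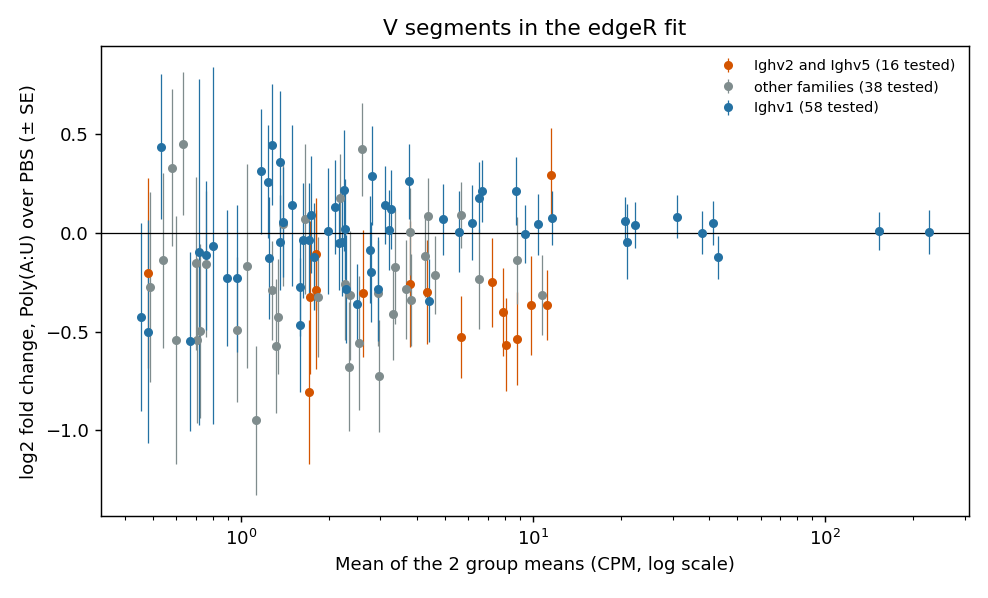
Log2 fold change of Poly(A:U) over PBS with its SE (y axis) against the mean level in CPM (x axis, log scale) for the 112 V segments tested by edgeR, coloured by family. The abundant segments on the right are Ighv1 members near 0, and the Ighv2 and Ighv5 segments lie below 0 except Ighv5-2.

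D and J segments were hardly measured. All 20 D segments had 0 reads in all 10 libraries. Their listed transcripts are 10 to 29 bases long, so a read cannot be assigned to one with confidence and the zeros say nothing of D usage. The J transcripts are 48 to 54 bases long, with effective lengths of 5.7 to 15.8 bases. Those with the most reads over the series, Ighj2 at chr12:113429468-113429515 and Ighj4 at chr12:113428514-113428567 of GRCm38 (minus strand, GENCODE M21 transcripts), show how short a target a read had.
Ighj2: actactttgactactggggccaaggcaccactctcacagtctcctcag
Ighj4: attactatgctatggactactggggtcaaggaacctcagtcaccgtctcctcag
Reads assigned to the 4 J segments together numbered 16, 14, 4, 5 and 8 in Poly(A:U) 1 to 5, against 16, 6, 4, 9 and 13 in PBS 1 to 5. The summed level was 0.471 ± 0.29 CPM in Poly(A:U) and 0.482 ± 0.22 CPM in PBS (SD, n = 5 each), a difference of -0.011 CPM (two-sided exact permutation test, p = 0.960, adjusted p = 0.960).

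Single J segments rested on a handful of reads. Ighj2 had 8, 5, 4, 5 and 5 reads in Poly(A:U), against 3, 6, 0, 6 and 8 in PBS. Ighj4 had 8, 5, 0, 0 and 1 in Poly(A:U), against 8, 0, 1, 1 and 1 in PBS. Ighj1 had 1 read in Poly(A:U), in replicate 5, against 5, 0, 3, 1 and 4 in PBS. Ighj3 had 5 reads in Poly(A:U) and 1 in PBS over all libraries. Usage of single J segments was not tested.

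Genes that make or use the heavy chain rearrangement were expressed, and none was called between the groups by edgeR's quasi-likelihood test. Rag1 and Rag2, the subunits of the recombinase, averaged 614 ± 110 and 182 ± 16.6 CPM in Poly(A:U), against 688 ± 161 and 151 ± 16.2 CPM in PBS (SD, n = 5 each). Rag2 had a log2 fold change of 0.28 ± 0.09 (SE) with an adjusted p of 0.677 by edgeR. Dntt, which adds bases at the joins, averaged 92.5 ± 34.6 CPM in Poly(A:U) and 98.3 ± 39.9 CPM in PBS. Of the 15 genes of recombination and end joining 6 were positive and 9 negative, with a median log2 fold change of -0.04 and 0 calls. Of the 9 genes of locus folding and access 8 were negative, with a median of -0.13 and 0 calls, and among them Pax5 averaged 1103 ± 148 CPM in Poly(A:U) and 1321 ± 334 CPM in PBS. The 6 partners of the heavy chain in the pre-B cell receptor had a median of -0.02 and 0 calls.

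Of the 8 constant region genes 4 were tested and 0 called. Ighm averaged 3482 ± 552 CPM in Poly(A:U) and 3831 ± 683 CPM in PBS, a log2 fold change of -0.14 ± 0.15 (SE). Ighd, spliced from the same primary transcript in mature B cells, averaged 101 ± 19.7 CPM in Poly(A:U) and 101 ± 25.4 CPM in PBS. Switched constant regions were low, Ighg2b at 3.77 ± 2.09 CPM in Poly(A:U) and 2.68 ± 0.48 CPM in PBS and Ighg3 at 0.744 ± 0.36 CPM in Poly(A:U) and 1.81 ± 1.25 CPM in PBS. Ighg1, Ighg2c, Ighe and Igha, which were not tested, did not exceed 0.142 CPM in any library.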

How the data were processed

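The authors deposited, for each of the 10 libraries, estimated counts of reads per transcript with TPM and effective lengths, per the file headers. DRAGEN, edgeR 3.38.4 and the build mm10 stand in the submitters' processing notes. The sources used here give neither the annotation release nor the counter's settings nor the use of strand. Deposited TPM values were summed without change. A deposited series-wide CPM table was not used.

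Estimated counts were summed per gene over GENCODE M21 transcripts. Of 142333 listed transcripts 538 had no match, holding 0.046% to 0.0695% of reads. Library totals were 17859006 to 22587871 estimated reads. Segment shares used unrounded sums.

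For the test across genes, sums were rounded to whole numbers, filtered with filterByExpr (minimum count 10) and fitted in edgeR 4.0.16 (R 4.3.3) by the quasi-likelihood test with TMM factors and treatment as the only term. DESeq2 1.42.0 was an alternative. The edgeR fit was tested on simulated data. Adjusted p-values are Benjamini-Hochberg with a threshold of 0.05. The 7 usage measures were compared by exact permutation over all 252 groupings of the libraries, and adjusted over the 7.

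The text names V segments that led a library or reached 5% of V reads, the 10 with the highest mean share, the 3 tested with the smallest unadjusted p in each direction, Ighv5-2, Ighv6-3 and the J segments. Ighv1-73, Ighv1-62-3 and genes of the lists were chosen with their values in view. Members and lists were chosen with earlier results of these data known.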

Additional observations from a re-analysis of the deposited data

Results flagged for a closer look

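Among 48 sets of 5 libraries, 7 held an extreme library whose distance from the next one exceeded 0.71 of the range of the set. About 1 in 20 sets of independent normal values would pass that limit. The 48 sets share libraries and V reads, so the count of 7 cannot be set against that rate. Poly(A:U) 5 gave 3 of the 7. Its share of V reads was 5.57% for Ighv1-64, against 4.14% to 4.396% in the other Poly(A:U) libraries, 3.33% for Ighv1-72, against 1.72% to 2.14%, and 2.50% for Ighv5-2, against 1.05% to 1.17%. Ighv1-72 is the segment nearest to Ighv1-64, with 96.1% of bases the same, and has 0 words of its own. The flags of these segments are therefore not known to be separate. V reads in PBS 4 were at 752 CPM, against 982 to 1021 CPM in the other PBS libraries. The same library had the lowest sum of B cell precursor markers and the highest of T cell and of macrophage markers. Among the T cell markers Cd3d and Cd8a, both at 0.153 CPM in PBS 4, stayed within the range of the other libraries. The part of T cells and macrophages in the V level of PBS 4 was not tested. In PBS 1, Ighv1-53 held 3.78% of V reads, against 4.00% to 4.08% in the other PBS libraries, and Ighv1-37 held 0.904%, against 1.21% to 1.299%. In PBS 2, Ighv1-72 held 1.77%, against 2.26% to 2.43%. The flags compare a library with its own group only. The Ighv1-53 share of PBS 1 and the Ighv1-72 share of PBS 2 lay within the range of the Poly(A:U) libraries. The Ighv1-37 share of PBS 1 lay below that range.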

How the results depend on the processing

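No member was called under any alternative run. The smallest adjusted p of a usage measure was 0.167, but the replicate block and the comparison without PBS 1 to PBS 3 could not pass by design. Of the alternative values of the usage measures and counts of calls, 126 kept their direction and side of the threshold, though often not their size. Another 12 turned their direction and 2 were counts that moved. Counts of 0 calls have no direction, and settings that could not pass by design could not change their side of the threshold. Among the other alternative values, 250 kept their direction and 32 turned it. The edgeR count of 0 genes became 13 with DESeq2 and ranged from 0 to 18 when single libraries were left out, the 18 without PBS 5. Without PBS 1 to PBS 3 the log2 difference in V reads was 0.068 and the log2 fold changes of Ighv1-84 and Ighv1-53 were 0.13 and 0.081, with Ighv1-85 and Ighv1-66 at 0.21 and 0.18. In 2 pairs the libraries share a number in their names that is not the replicate number. These are Poly(A:U) 1 with PBS 5 and Poly(A:U) 5 with PBS 4. In that order the V differences were -0.013 and 0.268 on the log2 scale, with a mean of 0.13. The J differences were 0.283 and -0.109 CPM, with a mean of 0.0874 CPM. Those in leading share were 2.74 and -2.65 percentage points, so the pairs differed in sign. Leaving out single libraries gave differences of -1.32 to -0.264 in effective number, 0.188 to 1.74 percentage points in leading share, 2.20 to 4.02 in Ighv1 share and -2.39 to -1.13 in Ighv2 and Ighv5 share, log2 differences of -0.12 to -0.011 in V reads, J differences of -0.117 to 0.0638 CPM and distance excesses of -0.00158 to 0.00794. RLE size factors and DESeq2 gave log2 fold changes of -0.0087 for Ighv1-85 and -0.0030 for Ighv1-66. Without single libraries log2 fold changes ran from -0.070 to 0.074 for Ighv1-85, -0.059 to 0.071 for Ighv1-66, -0.034 to 0.10 for Ighv1-64, -0.067 to 0.047 for Ighv1-53, -0.055 to 0.082 for Ighv1-55, -0.24 to 0.051 for Ighv1-72, -0.031 to 0.11 for Ighv1-77, -0.00080 to 0.13 for Ighv1-37, -0.033 to 0.39 for Ighv5-2 and -0.23 to 0.34 for Ighv6-3. The cause of these turns was not tested. Mean shares from deposited TPM were added after seeing the data. Replicate numbers gave little sign of pairing. Across genes, the deviations of same-numbered libraries from their group means correlated at -0.183 to 0.140. Only for number 2 was the same-numbered PBS library the best match. With the replicate number as a block edgeR called 0 genes, and the differences are those of the group means by construction, 2.97 percentage points for Ighv1 family share (exact permutation within pairs, p = 0.188, smallest possible p 0.0625). The short transcripts of D and J segments leave few reads to them, and low V segments carry wide errors.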
